A study of Mus musculus with 10 samples.

Results

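Microglia keep their identity through a small set of DNA-binding proteins, and 9 of their genes are described here: *Spi1*, *Irf8*, *Sall1*, *Mef2a*, *Mef2c*, *Maf*, *Runx1*, *Cebpa* and *Cebpb*. They were chosen by name as myeloid lineage-defining transcription factors and not by their measured values, although earlier results of these data were known. All 9 were found among the 55453 genes of the count table, and all 9 were among the 14481 genes that passed a filter on low counts. RNA came from microglia sorted as CD45int CD11b+ cells from the hippocampus of female 3xTg mice older than 15 months. These mice carry mutant human transgenes, among them *APP* with the Swedish mutation and *MAPT* P301L, which the study's methods place under the neuronal Thy1.2 promoter. They were retired breeders of a homozygous colony, and both groups carried the same transgenes, so no mouse without them was compared. One group received glatiramer acetate (GA), a random polymer of amino acids used as an immunomodulator in multiple sclerosis, at 0.1 mg weekly for about 8 weeks under the skin, and the other received phosphate-buffered saline (PBS). Each group held 5 libraries, and the comparison asks whether GA altered the RNA of these cells.

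The names of the libraries divide the GA group. All 5 PBS libraries have titles that begin with 388, GA replicates 1 and 2 have titles that begin with 394, and GA replicates 3, 4 and 5 have titles that begin with 400. What this title prefix stands for is not given in the sources used here. Because no prefix holds both treatments, a difference between GA and PBS and a difference between prefixes cannot be told apart. Totals ran from 32332185 to 38764643 counts per library. The 12 markers of microglia, all counted, summed to 65473 to 76446 counts per 1000000 (CPM, after TMM scaling) in PBS and to 66541 to 71540 CPM in GA. Markers of neutrophils were also counted, all 12 of them, and summed to 38.1 to 449 CPM in PBS with a median of 287, against 11.0 to 171 CPM in GA with a median of 42.3 (exact two-sided permutation test, *P* = 0.0794). Of the other cell types examined, astrocyte markers summed highest, to at most 353 CPM in any library.

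These factors act together on shared enhancers, and their balance sets which myeloid cell forms. *Spi1* encodes PU.1, the ETS factor that opens myeloid enhancers, and *Runx1* and *Cebpa* act beside it early in blood development. *Irf8* binds composite sites with PU.1 and is needed for microglia to form, *Cebpb* drives inflammatory and acute-phase genes in macrophages, and *Maf* encodes c-MAF, a bZIP factor of resident macrophages. *Sall1* is a zinc-finger factor that in the myeloid lineage marks microglia and holds their resting program, and *Mef2a* and *Mef2c* encode MADS-box factors whose motif is enriched in microglial enhancers.

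The factors lie on 5 chromosomes of mouse build GRCm38, and all are protein coding in GENCODE M21. *Spi1* (chr2:91082390-91115756, plus strand) and *Cebpb* (chr2:167688915-167690418, plus strand) share chromosome 2. *Mef2a* (chr7:67231163-67372858, minus strand) and *Cebpa* (chr7:35119293-35121928, plus strand) share chromosome 7. *Irf8* (chr8:120736358-120756694, plus strand), *Sall1* (chr8:89027235-89044162, minus strand) and *Maf* (chr8:115682942-115707794, minus strand) are on chromosome 8, *Mef2c* (chr13:83504034-83667080, plus strand) is on chromosome 13 and *Runx1* (chr16:92601466-92826149, minus strand) is on chromosome 16. *Cebpa* and *Cebpb* each consist of 1 exon.

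Windows of 300 bases around the starts of transcription, 250 before and 50 after, were taken from a table of RefSeq promoters (GRCm38.p6), in which 7 of the 9 factors, all but *Spi1* and *Maf*, were matched with 13 windows in all. They were searched on both strands for motifs of the PU.1, C/EBP, RUNX, IRF, MEF2 and MAF families. Besides these, the half-site of a cAMP response element was searched. The sequence upstream of *Cebpb* is shown because *Cebpb* was, of the 9, the most variable between GA libraries, and it held TGACG, the half-site of a cAMP response element, 3 times (capitals, where CGTCA is the match on the other strand). It covers chr2:167688665-167688914 on the plus strand and ends at the base before the start.

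upstream of *Cebpb*: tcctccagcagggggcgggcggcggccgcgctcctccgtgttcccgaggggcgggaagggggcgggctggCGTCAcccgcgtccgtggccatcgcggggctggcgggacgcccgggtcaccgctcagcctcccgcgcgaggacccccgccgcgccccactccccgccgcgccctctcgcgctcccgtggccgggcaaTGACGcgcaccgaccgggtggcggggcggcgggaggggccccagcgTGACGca

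TGACG occurred in 20.8% of all 32851 windows, and a window of *Sall1* held it as well. The start of the distal *Runx1* transcript is shown because *Runx1* held the RUNX motif TGTGGTT itself, 2 times on the strand opposite to the gene (AACCACA in capitals), at bases 28 to 34 and 36 to 42 after the start. These 30 bases lie at chr16:92826025-92826054, read on the minus strand.

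*Runx1* distal start: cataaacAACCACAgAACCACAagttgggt

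TGTGGTT occurred in 5.27% of windows. The start of *Mef2a* is shown because it held the MEF2 motif CTANNNNTA on each strand at overlapping places (capitals), from base -2 to base 8. It lies at chr7:67372841-67372870, read on the minus strand.

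*Mef2a* start: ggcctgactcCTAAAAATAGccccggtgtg

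CTANNNNTA occurred in 21.0% of windows, and those of *Cebpa* and *Mef2c* held it as well. None of the 7 factors with a window held the PU.1 motif GAGGAAGT (3.202% of windows), the C/EBP motif TTGCNNAA (10.8%), the IRF motif GAAANNGAA (8.56%) or the MAF motif TGCTGAC (4.67%). These matches describe letters in short windows, not binding.

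To set the factors beside each other, CPM were divided by the exon length of each gene in kilobases (kb). This length merges the exons of every annotated transcript of a gene, so it can exceed that of any 1 transcript. *Spi1* stood highest at 145 ± 8.94 CPM per kb (SD, n = 10 libraries), followed by *Irf8* at 136 ± 6.51 and *Sall1* at 135 ± 8.20. These 3 ranked 209, 224 and 226 among 14353 genes with a length, within the top 1.57%. *Cebpb* followed at 83.5 ± 15.3 CPM per kb and *Cebpa* at 43.1 ± 5.62. *Mef2c* and *Mef2a* were at 37.8 ± 1.76 and 37.7 ± 2.55 CPM per kb. *Maf* was at 19.3 ± 1.66 and *Runx1*, the lowest, at 10.6 ± 1.19 CPM per kb, rank 4201.

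Several neighbours in this order were close and changed places in some libraries. *Irf8* was above *Sall1* in 4 of 10 libraries, *Mef2c* above *Mef2a* in 3, and *Spi1* above *Irf8* in 9 with a mean ratio of 1.06. *Cebpa* was above *Mef2c* in 8 libraries, with a mean ratio of 1.13. The other steps held in all 10 libraries: *Sall1* was 1.64-fold above *Cebpb*, *Cebpb* 1.92-fold above *Cebpa*, *Mef2a* 1.95-fold above *Maf* and *Maf* 1.83-fold above *Runx1*. Per kb, the factors formed a group of 3 at the top, *Cebpb*, a group of *Cebpa*, *Mef2c* and *Mef2a*, and then *Maf* and *Runx1*. This order depends on the lengths used. In mean CPM, *Irf8* (961), *Sall1* (711), *Mef2c* (594) and *Mef2a* (554) stood above *Spi1* (391). *Maf* (159), *Runx1* (128), *Cebpb* (126) and *Cebpa* (114) followed.

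The family relatives show which paralogs these cells used. Of 26 relatives listed, 19 passed the filter on low counts. *Irf5*, an IRF of Toll-like receptor signalling, was at 209 CPM per kb, above *Irf8* and *Spi1*. In mean CPM it was at 606, below *Irf8* at 961. Other relatives with high CPM were *Sall3* at 23.6 CPM per kb, *Cebpg* at 27.6, *Mafg* at 25.4 and *Cebpd* at 28.8. The closest relatives of PU.1 were near 0: *Spib* and *Spic* had at most 28 counts in any library, and so did *Mef2b*, *Cebpe*, *Mafa* and *Sall4*. *Nrl* had no count, and with 0 counts allowing for up to 3 a library, this is a limit of detection. *Runx3* was at 0.711 CPM and *Runx2* at 0.334 CPM, both far below *Runx1* at 128 CPM.

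**Figure D1:**
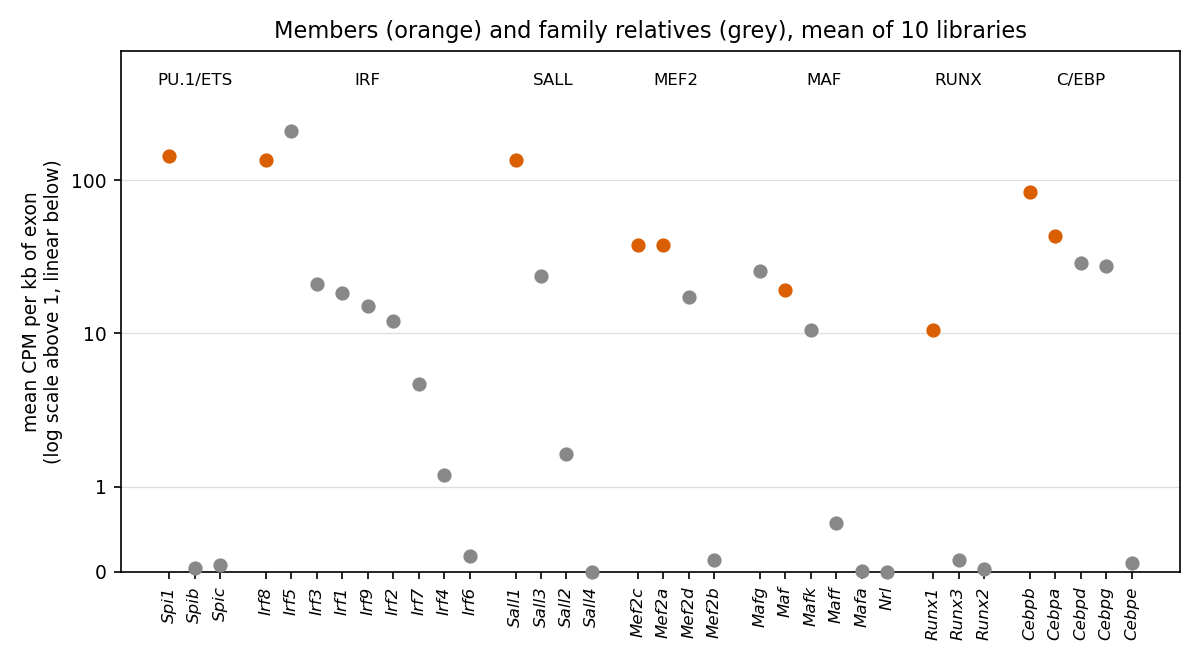
Mean level of each factor (orange) and of family relatives (grey) over 10 libraries, in CPM per kb of exon on an axis that is logarithmic above 1 and linear below. Per kb, *Spi1*, *Sall1*, *Runx1* and *Cebpb* stood highest in their families, and *Mef2c* and *Mef2a* were level at the top of theirs. *Irf5* stood above *Irf8* per kb, while in mean CPM *Irf8* stood above *Irf5* and *Cebpg* (155) above *Cebpb* (126).

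Between GA and PBS none of the 9 factors differed beyond the spread of the libraries. The fold of GA over PBS lay between 0.886 for *Cebpb* and 1.06 for *Cebpa*, with 3 factors higher in GA and 6 lower. No factor passed an adjusted *P* of 0.05 in edgeR's quasi-likelihood test or in DESeq2, and none had an unadjusted *P* under 0.05 in edgeR. Across all genes tested edgeR called 0% (0 of 14481) and DESeq2 0.0106% (2 of 18894), while 5.75% had an unadjusted *P* under 0.05 in edgeR. The 2 groups overlapped for every factor, and they did not overlap for 0.891% of all genes. In RNA from a cell population, fewer cells of a type and less RNA per cell cannot be told apart. Nothing in the labels says whether a library came from 1 mouse or from a pool, so *P* values set differences against the spread between these libraries.

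**Figure D2:**
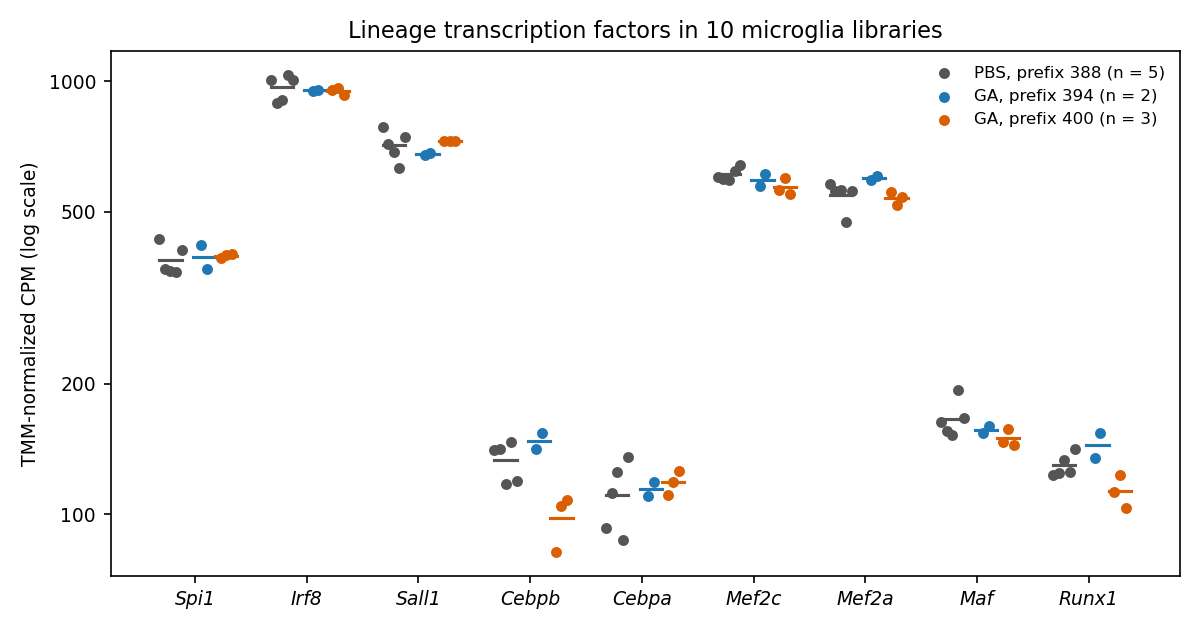
CPM of the 9 factors in each library on a log axis, where points are libraries (grey PBS, blue GA of title prefix 394, orange GA of title prefix 400) and lines are means of each prefix. GA and PBS overlap for every factor, and *Irf8* is highest at 891 to 1036 CPM.

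*Spi1* was at 431.6, 368.0, 365.5, 361.9 and 407.2 CPM in PBS replicates 1 to 5 and at 417.7, 369.0, 390.6, 396.9 and 398.5 CPM in GA replicates 1 to 5. All GA libraries lay within the range of PBS. The log2 fold change of GA over PBS was 0.028 (SE 0.065, 95% interval -0.11 to 0.17, edgeR adjusted *P* = 0.974).

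*Irf8*, the factor with the highest CPM of the 9, was at 1005.8, 890.8, 905.1, 1036.4 and 1007.5 CPM in PBS and at 952.3, 957.0, 952.8, 966.3 and 931.7 CPM in GA. The GA libraries lay close together inside the PBS range, with a coefficient of variation of 1.33% against 6.84% in PBS. Its log2 fold change was -0.026 (SE 0.057, 95% interval -0.15 to 0.097, edgeR adjusted *P* = 0.972).

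*Runx1* was at 123.3, 124.8, 133.4, 125.4 and 141.1 CPM in PBS and at 134.6, 154.0, 112.2, 123.0 and 103.2 CPM in GA. GA replicate 2 was above every PBS library and GA replicates 3, 4 and 5 were below every PBS library, so the GA libraries lay on both sides. The log2 fold change was -0.047 (SE 0.096, 95% interval -0.25 to 0.16, edgeR adjusted *P* = 0.971).

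*Cebpa* was at 92.7, 112.1, 125.2, 87.2 and 135.7 CPM in PBS and at 110.4, 118.6, 110.9, 118.9 and 125.6 CPM in GA. Here the PBS libraries spread widely, with a coefficient of variation of 18.7% against 5.42% in GA, and every GA library fell inside their range. The log2 fold change was 0.080 (SE 0.11, 95% interval -0.15 to 0.31, edgeR adjusted *P* = 0.952), and it ran from 0.0056 without PBS replicate 4 to 0.17 without PBS replicate 5.

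*Cebpb* was at 140.3, 141.5, 117.3, 147.1 and 119.3 CPM in PBS and at 141.4, 154.1, 81.9, 104.4 and 108.0 CPM in GA. GA replicates 3, 4 and 5 were below every PBS library and GA replicate 2 above every one. Its log2 fold change of -0.17 was the widest from 0 of the 9, with the least precise estimate (SE 0.14, 95% interval -0.48 to 0.13, edgeR adjusted *P* = 0.920). With a library left out it ran from -0.29 without GA replicate 2 to -0.063 without GA replicate 3, where *Maf* at -0.10 and *Cebpa* at 0.10 were farther from 0. *Cebpb* shares 312 of its exon bases (20.7%) with *Tmem189* on the opposite strand, which was at 48.4 to 55.2 CPM, and the library kit does not keep the strand, so reads from those bases cannot be told apart.

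*Sall1* was at 786.2, 717.4, 685.2, 631.1 and 744.1 CPM in PBS and at 675.8, 684.0, 727.9, 728.7 and 729.7 CPM in GA. All GA libraries lay inside the PBS range. The log2 fold change was -0.0072 (SE 0.064, 95% interval -0.15 to 0.13, edgeR adjusted *P* = 0.993), and its sign turned under 6 of 19 alternatives.

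The MEF2 pair leaned in opposite directions without passing a test. *Mef2a* was at 577.7, 556.7, 561.1, 473.9 and 558.0 CPM in PBS and at 592.3, 605.5, 555.3, 519.2 and 540.3 CPM in GA, with GA replicates 1 and 2 above every PBS library. Its log2 fold change was 0.044 (SE 0.068, 95% interval -0.10 to 0.19, edgeR adjusted *P* = 0.956), and it was -0.0020 without PBS replicate 4, the lowest library. *Mef2c* was at 600.2, 594.4, 592.1, 621.2 and 640.8 CPM in PBS and at 571.7, 611.9, 560.2, 598.5 and 549.8 CPM in GA, with 3 GA libraries below every PBS library. Its log2 fold change was -0.076 (SE 0.055, 95% interval -0.19 to 0.041, edgeR adjusted *P* = 0.905), and the exact permutation test gave *P* = 0.0714.

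*Maf* was at 163.3, 155.5, 152.2, 193.1 and 167.1 CPM in PBS and at 154.0, 159.7, 146.8, 157.7 and 144.6 CPM in GA. PBS replicate 4 stood highest and GA replicates 3 and 5 lay below every PBS library. The log2 fold change was -0.12 (SE 0.072, 95% interval -0.28 to 0.030, edgeR adjusted *P* = 0.895, exact permutation *P* = 0.0873), and without PBS replicate 4 it was -0.064.

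The 95% intervals bound what these libraries leave possible. For *Spi1*, *Irf8*, *Sall1*, *Mef2a* and *Mef2c* they reached at most a 1.14-fold difference in either direction, for *Runx1* 1.19-fold, for *Maf* 1.21-fold, for *Cebpa* 1.24-fold and for *Cebpb* 1.39-fold. The biological coefficient of variation was below the trend for genes of like abundance in 6 of 9, close to the 68.5% of all genes tested, and in these 6 it ran from 7.32% for *Mef2c* to 8.81% for *Maf*. It was above the trend for *Runx1* (11.2% against 10.6%), *Cebpa* (12.5% against 10.7%) and *Cebpb* (16.04% against 10.6%). The median size of the log2 fold change was 0.0473 for the 9 factors and 0.107 over all genes tested, which include many genes of lower counts.

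**Figure D3:**
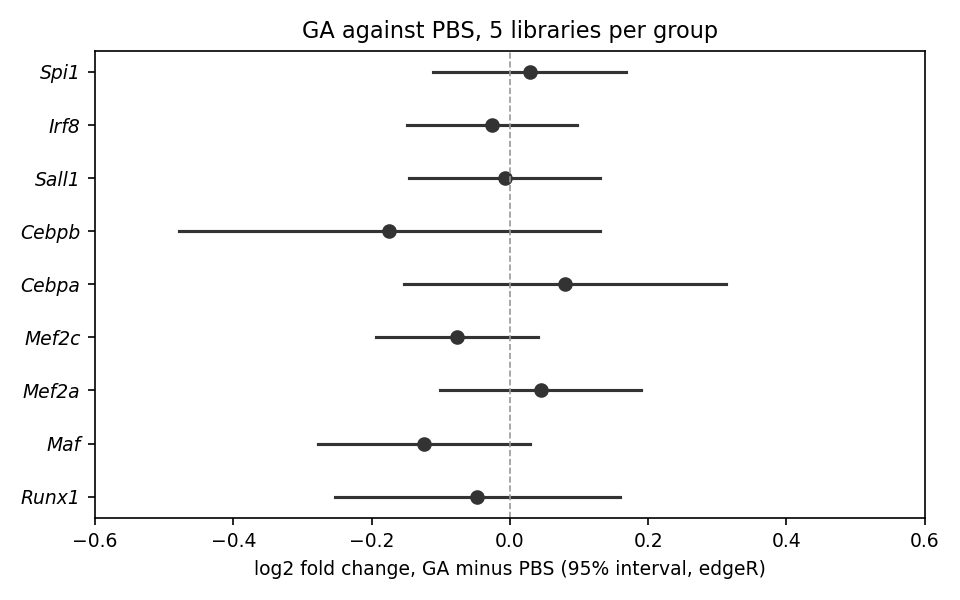
Log2 fold change of GA over PBS for the 9 factors (points) with the 95% interval of edgeR's fit (lines). Every interval crosses 0, and that of *Cebpb* is the widest, from -0.48 to 0.13.

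Within GA the 2 title prefixes differed for *Cebpb* and *Runx1*, the factors whose GA libraries lay on both sides of PBS, by DESeq2 but not by edgeR. Of the 9 factors DESeq2 called these 2 at an adjusted *P* of 0.05, where it called 1.72% of all genes, and edgeR called none, where it called 0.0133%. An unadjusted *P* under 0.05 in edgeR was found for 3 of 9 (*Mef2a*, *Runx1* and *Cebpb*), against 10.1% of all genes. The libraries of the 2 prefixes did not overlap for 4 of 9 (*Sall1*, *Mef2a*, *Runx1* and *Cebpb*), against 27.7% of all genes. With 2 libraries against 3, an exact permutation test cannot give less than *P* = 0.1, the value of all 4.

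*Cebpb* averaged 133 CPM in PBS, 148 CPM (141 and 154) for prefix 394 and 98.1 ± 14.2 CPM (SD, n = 3, from 81.9 to 108) for prefix 400. The difference of prefix 400 from 394 was a log2 fold change of -0.59 (SE 0.12), with an adjusted *P* of 0.188 in edgeR and 1.66e-04 in DESeq2. Leaving out each GA library in turn, it ran from -0.67 to -0.47 and DESeq2 called it in 5 of 5 fits, with an adjusted *P* of up to 0.0310, and edgeR in none. The fits without GA replicate 1 or 2 leave 1 library of prefix 394, which is assumed to vary like those of prefix 400, so they give no separate estimate of its spread. Against PBS, the prefix 400 libraries alone gave -0.43 and the prefix 394 libraries alone 0.16, with an edgeR adjusted *P* of 0.452 for the former.

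*Runx1* averaged 130 CPM in PBS, 144 CPM in prefix 394 and 113 ± 9.91 CPM (SD, n = 3) in prefix 400. The log2 fold change of prefix 400 over 394 was -0.35 (SE 0.094), with an adjusted *P* of 0.272 in edgeR and 0.0289 in DESeq2. With each GA library left out in turn it ran from -0.44 to -0.26. The DESeq2 call was made in 2 of these 5 fits, and it was lost without GA replicate 2 (adjusted *P* = 0.559), replicate 3 (0.139) or replicate 5 (0.245). Of these 5 fits, the one without GA replicate 1, which kept the call, and the one without GA replicate 2 again hold 1 library of prefix 394. Against PBS, prefix 400 alone gave -0.19 and prefix 394 alone 0.16.

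*Mef2a* was at 599 CPM in prefix 394 and 538 ± 18.1 CPM in prefix 400, a log2 fold change of -0.15 (SE 0.056, unadjusted *P* = 0.0246, adjusted *P* = 0.407 in edgeR and 0.246 in DESeq2). *Sall1* went the other way, at 680 CPM in prefix 394 and 729 CPM in prefix 400, with a log2 fold change of 0.10 (SE 0.050, edgeR adjusted *P* = 0.547). For *Spi1*, *Irf8*, *Mef2c*, *Maf* and *Cebpa* the log2 fold change between prefixes lay between -0.066 and 0.050, and all 5 overlapped.

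Of 10 summed lists, 4 did not overlap between the prefixes, where 27.7% of all genes did not. The summed level of 18 immediate early genes, all counted, was 1397 to 1843 CPM in prefix 394 and 1177 to 1258 in prefix 400. In PBS it was 1232 to 1612 CPM. These genes respond within minutes to stimuli and to handling of cells. They did not contribute evenly to the sum. *Jun* averaged 392 CPM in prefix 394 and 167 CPM in prefix 400, while *Btg2* averaged 257 CPM in both. *Atf3* averaged 43.7 CPM in prefix 394 and 46.1 CPM in prefix 400. The 6 astrocyte markers, all counted, summed to 326 to 353 CPM in prefix 394, 249.1 to 273 CPM in prefix 400 and 246 to 303 CPM in PBS. Markers of border-associated macrophages and of endothelial cells separated the prefixes the other way. The 9 of border-associated macrophages, all counted, summed to 56.0 to 98.3 CPM in prefix 394, 105 to 215 CPM in prefix 400 and 57.7 to 278 CPM in PBS. The 6 of endothelial cells, of which *Slco1a4* was at 0, summed to 34.4 to 38.8 CPM in prefix 394, 44.5 to 49.0 CPM in prefix 400 and 37.1 to 50.2 CPM in PBS. The neutrophil markers overlapped between the prefixes, at 42.3 to 171 CPM in 394 and 11.0 to 106 CPM in 400, and so did those of microglia, monocytes, T and B cells, oligodendrocytes and neurons. The part of these in the values of *Cebpb* and *Runx1* was not tested.

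**Figure D4:**
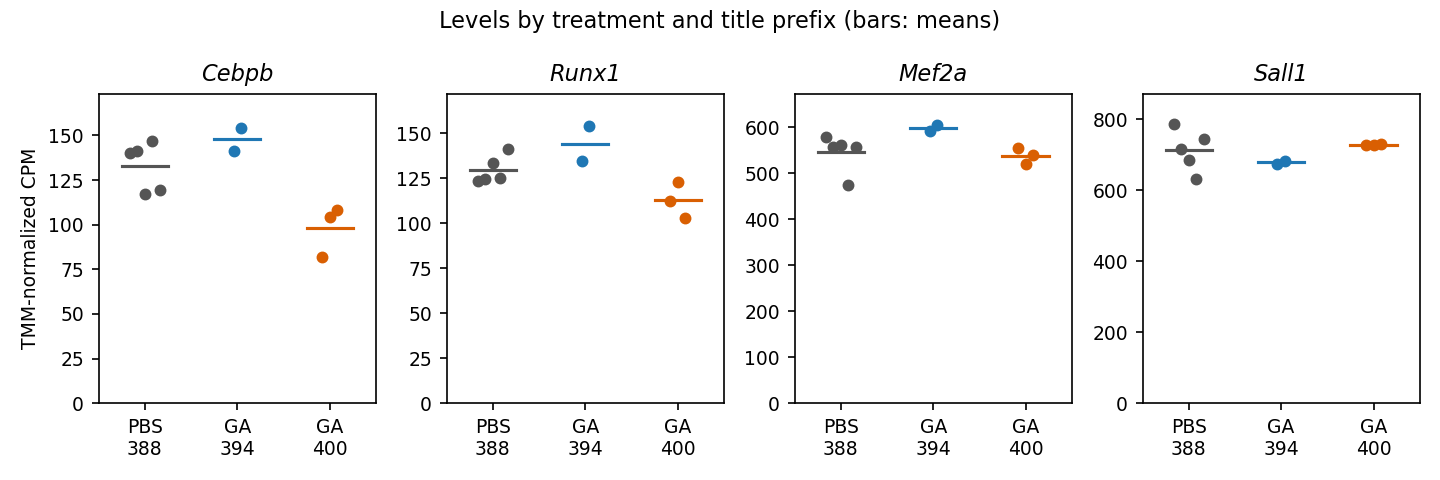
CPM of *Cebpb*, *Runx1*, *Mef2a* and *Sall1* in every library (points) by treatment and title prefix, each on an axis from 0, with lines at the means. The 3 *Cebpb* and the 3 *Runx1* values of prefix 400 lie below every PBS library, and both *Mef2a* values of prefix 394 lie above every PBS library.

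Ratios within a family do not depend on how libraries are scaled. *Mef2a* to *Mef2c*, per kb, was 0.959 ± 0.0881 in PBS and 1.04 ± 0.0673 in GA (SD, n = 5 each, log2 difference 0.12, exact permutation *P* = 0.151, adjusted over 3 ratios tested 0.238). *Cebpa* to *Cebpb* was 0.485 ± 0.138 in PBS and 0.594 ± 0.147 in GA (log2 difference 0.30, exact permutation *P* = 0.238, adjusted 0.238). Within GA it was 0.442 in prefix 394 and 0.695 in prefix 400. Neither ratio separated the groups.

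Across the 10 libraries the factors varied together only in part. None of the 36 pairs passed an adjusted *P* of 0.05 by Pearson's *r*, and 1 passed by Spearman's rho. That pair was *Mef2c* and *Maf*, with *r* = 0.762 (permutation *P* = 0.00787, adjusted over 36 pairs 0.142) and rho = 0.964 (adjusted 0.00252). Its *r* was 0.771 without PBS replicate 5 and GA replicate 5, the libraries farthest from the median of *Mef2c*, and 0.652 after each treatment group was centred. *Irf8* and *Maf* followed with *r* = 0.753 (permutation *P* = 0.00791, adjusted 0.142), rho = 0.806 (permutation *P* = 0.00719, adjusted 0.129), *r* = 0.770 without PBS replicates 2 and 4 and 0.793 after centring. *Mef2c* and *Runx1* had *r* = 0.704 (permutation *P* = 0.0222, adjusted 0.266) and rho = 0.600 (permutation *P* = 0.0726, adjusted 0.373), with *r* = 0.749 after centring. Without PBS replicate 5 and GA replicate 5 its *r* was 0.437. No *r* is given within a prefix, since the prefixes hold 5, 2 and 3 libraries.

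The genes whose level over the 10 libraries was most like each factor were searched among 8692 genes with a mean of at least 10 CPM, as a description. The closest to *Spi1* were *Ss18* (*r* = 0.910) and *Parvg* (0.897), and to *Irf8* they were *Rela* (0.966), a subunit of NF-κB, and *Rab11b* (0.929). *Sall1* was closest to *Lsm11* (0.967) and *Oaf* (0.936), *Mef2a* to *Pxn* (0.927) and *0610010F05Rik* (0.916), and *Mef2c* to *Crebbp* (0.945), a histone acetyltransferase, and *Ocrl* (0.891). *Maf* was closest to *Tnrc6b* (0.969) and *Xiap* (0.939), *Runx1* to *Ddx54* (0.918) and *Apbb1* (0.911), *Cebpa* to *Rmnd5a* (0.969) and *Sowahc* (0.968), and *Cebpb* to *Disc1* (0.919) and *Mga* (0.915). None of the 9 was among the 2 closest genes of another, and no test was made of these values.

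Among the 19 relatives tested, 11 were higher and 8 lower in GA, none with an unadjusted *P* under 0.05, with a median log2 fold change of 0.042, where that of all genes tested was 0.00020. The smallest *P* belonged to *Irf2*, a repressor of interferon genes, at 93.1 ± 7.59 CPM in PBS and 85.5 ± 2.31 CPM in GA (log2 fold change -0.12, unadjusted *P* = 0.0879). *Irf4*, *Mef2d* and *Cebpd* followed with log2 fold changes of 0.49, -0.12 and -0.13, and all 4 had an adjusted *P* of 0.895 in edgeR. *Irf5* was close in the groups, at 607 ± 36.4 CPM in PBS and 606 ± 18.1 CPM in GA.

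Of 38 other myeloid factors, 34 were tested, 15 higher and 19 lower in GA with a median log2 fold change of -0.018. An unadjusted *P* under 0.05 was found for 2 of 34 (5.75% of all genes), and no adjusted *P* passed. *Mitf*, a lysosomal and melanocyte factor, was at 19.6 ± 2.81 CPM in PBS and 15.8 ± 1.67 in GA (-0.31, unadjusted *P* = 0.0205, edgeR adjusted *P* = 0.847). *Klf2*, a factor of quiescence, was at 9.13 ± 4.27 and 6.07 ± 0.643 CPM (-0.59, unadjusted *P* = 0.0277, edgeR adjusted *P* = 0.854). The next 2 were *Ikzf1*, which encodes Ikaros, at 214 and 198 CPM, and *Bhlhe41* at 103 and 90.4 CPM, with edgeR adjusted *P* of 0.894 and 0.895.

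All 25 genes listed as known targets of these factors were tested, 12 higher and 13 lower in GA with a median log2 fold change of -0.0045, and 2 had an unadjusted *P* under 0.05. *Csf3r*, the receptor of granulocyte colony-stimulating factor and a target of PU.1 and C/EBP proteins, was at 844 ± 42.8 CPM in PBS and 967 ± 49.8 in GA (0.20, unadjusted *P* = 0.00453, edgeR adjusted *P* = 0.847). *Blnk*, an adaptor of immune receptor signalling, was at 440 ± 49.6 and 389 ± 16.1 CPM (-0.18, unadjusted *P* = 0.0316, edgeR adjusted *P* = 0.854). *Itgam*, which encodes CD11b and was used in the sort, was at 188 ± 57.4 and 239 ± 46.9 CPM, and the log2 fold change of *Cst3*, which encodes the protease inhibitor cystatin C, was -0.12.

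Of 15 genes listed as a resting microglial signature linked to SALL1, 14 were in the table and tested, 3 higher and 11 lower in GA with a median log2 fold change of -0.059, and none had an unadjusted *P* under 0.05. *P2ry12*, the purinergic receptor of resting microglia, was at 6890 ± 316 CPM in PBS and 6319 ± 506 in GA (-0.12, unadjusted *P* = 0.0600, edgeR adjusted *P* = 0.872). *Tmem119*, *Gpr34* and *Olfml3* had log2 fold changes of -0.10, -0.11 and 0.10 with edgeR adjusted *P* of 0.895 to 0.896. *Sall1* itself was at 713 ± 58.8 CPM in PBS and 709 ± 26.9 in GA.

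Factors of other lineages were nearly absent from these libraries. Of 25 listed, 23 did not pass the filter and had at most 28 counts in any library. *Gata1*, *Tbx21*, *Eomes*, *Neurod1*, *Sox17* and *Tbx18* had 0 counts in every library, which allows up to 3 in each. The 2 tested were *Tal1*, an erythroid and endothelial factor at 7.09 CPM, and *Prox1*, a lymphatic and neural factor at 18.7 CPM, with log2 fold changes of -0.16 and -0.074. Of 17 immediate early genes tested, 6 were higher and 11 lower in GA, none with an unadjusted *P* under 0.05. The smallest *P* among them belonged to *Dusp1*, a phosphatase of MAP kinases, at 34.02 ± 28.3 CPM in PBS and 20.4 ± 11.3 in GA (edgeR adjusted *P* = 0.895), followed by *Egr2*, *Junb* and *Ier3*.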

How the data were processed

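RNA of CD45int CD11b+ cells was purified, amplified with a SMARTer kit, made into Nextera XT libraries and sequenced as single-end reads of 100 nt. The submitters' processing notes name bcl2fastq 2.19.0, fastp 0.20.0, STAR 2.7.0f, Subread 1.6.4, featureCounts, DESeq2 and build GRCm38.p6. The annotation and strand setting are not given in the sources used here. The authors deposited raw counts of reads per gene. All 10 columns matched a library, and 0 were left out.

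Counts were filtered with filterByExpr (minimum count 10), scaled by TMM and tested for GA against PBS with edgeR 4.0.16's quasi-likelihood test, adjusted by Benjamini-Hochberg over all genes tested (threshold 0.05). Single values used exact two-sided permutation tests of log2(CPM + 0.1) over 252 arrangements of the libraries (smallest *P* 0.00794). Pairs used 100000 resamples. GENCODE M21 gave positions and exon lengths. R 4.3.3, limma 3.58.1, DESeq2 1.42.0 (defaults) and Python 3.11.15 were used, and the scripts were tested on simulated data. Alternatives were other tools, scalings and filters, libraries left out and either GA prefix alone. Leaving out libraries within the prefix comparison was added after seeing the data.

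The 9 factors and all lists were chosen with earlier results of these data known. Genes named from a list were the 4 with the smallest unadjusted *P*, for relatives also the 6 with the highest CPM, of which 1 is not reported here. For each factor the 2 most correlated genes were named, and of the pairs the 3 with the highest absolute *r*. Low relatives and factors of other lineages were named after their values were seen. The 10 totals, 32332185 to 38764643 counts, put at least 2814 reads on each factor in each library. Limits from 0 counts cover counting error only, since amplified reads are not independent molecules.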

Additional observations from a re-analysis of the deposited data

Results flagged for a closer look

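*Mef2a* in PBS replicate 4, at 473.9 CPM, stood apart from the other 4 PBS libraries, which lay between 556.7 and 577.7 CPM. Its gap to the nearest library was 0.798 of the range of the group, above Dixon's critical value of 0.710 for 5 samples. This was 1 of 24 groups of values examined, and chance alone flags about 1 in 20.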

How the results depend on the processing

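No factor was called for GA against PBS under any of the 19 alternatives, with adjusted *P* from 0.452 upwards. The number of genes called, 0 in edgeR, was 2 in DESeq2 and 0 to 1 with a library left out (1 without GA replicate 1). The number of factors with an unadjusted *P* under 0.05, 0 in edgeR, was 0 to 1 with a library left out (*Cebpb* without GA replicate 2) and 2 (*Cebpb* and *Runx1*) with prefix 400 alone. With prefix 394 alone the log2 fold change turned to 0.16 for *Cebpb* and 0.16 for *Runx1*, and the *Cebpa* to *Cebpb* ratio to -0.086. With prefix 400 alone it turned to 0.037 for *Sall1* and -0.014 for *Mef2a*, and without a filter to 0.0019 for *Sall1*. With a library left out it ran from -0.048 to 0.031 for *Sall1*, -0.0020 to 0.077 for *Mef2a* and -0.13 to 0.016 for *Runx1*. The difference of mean log2 CPM then ran from -0.053 to 0.0018 for *Irf8*, -0.047 to 0.032 for *Sall1*, -0.0045 to 0.074 for *Mef2a* and -0.14 to 0.0073 for *Runx1*. Its exact permutation *P* was 0.0317 for *Mef2c* without GA replicate 2 and for *Maf* without PBS replicate 3. The number of pairs past the threshold, 0 by Pearson's *r*, was 1 by Spearman's rho and 0 to 1 with a library left out (1 without PBS replicate 4 or GA replicate 1). Between prefixes the number of factors called, 0 in edgeR, was 2 in DESeq2 and in DESeq2 1 to 2 with a library left out, and the log2 fold change ran from -0.083 to 0.11 for *Spi1* and -0.021 to 0.0073 for *Irf8*. The cause of these shifts was not tested. No paired analysis was possible because the numbers in the titles restart within each prefix and no prefix holds both treatments.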

Other observations

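Among the relatives, *Irf7*, *Irf1* and *Irf9*, which act in the interferon response, are given by title prefix after their values were seen. *Irf7* averaged 10.8 CPM in the GA libraries of prefix 394, 26.6 CPM in those of prefix 400 and 15.0 ± 6.71 CPM in PBS. *Irf1* averaged 65.2, 85.9 and 68.3 CPM in the same order, and *Irf9* 70.2, 86.5 and 82.7 CPM. Prefix 400 over 394 gave a log2 fold change of 1.30 for *Irf7* (SE 0.35), 0.40 for *Irf1* (SE 0.15) and 0.30 for *Irf9* (SE 0.10). None passed the threshold, with adjusted *P* of 0.282, 0.423 and 0.351 in edgeR and 0.230, 0.148 and 0.143 in DESeq2.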
